A study of Rattus norvegicus with 30 samples.

Results

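The claudins Cldn1, Cldn2, Cldn3, Cldn4, Cldn5, Cldn7, Cldn8, Cldn10, Cldn16 and Cldn19 were followed in 2 zones of the rat kidney, the cortex (Cx) and, beneath it, the outer medulla (OM). These 10 genes were taken by symbol from a table of 32545 genes that holds 22 claudin rows, because each is known from a particular stretch of the nephron or from the vessels and glomeruli beside it. The study asked how normal kidneys respond to a high salt intake. Sprague-Dawley rats, male by the methods of the study, ate a 0.4% NaCl diet (LS), or had been moved from it to a 4.0% NaCl diet for 14 d (HS14) or 21 d (HS21). Poly(A) RNA of the right kidney gave 5 libraries for each diet in the Cx and 5 in the OM, 30 in all, and LS replicates carry the numbers 1 to 5, HS14 replicates 6 to 10 and HS21 replicates 11 to 15 in both tissues. The methods of the study give 5 kidneys per diet, from which both zones were taken. The labels give no age, and they do not say whether a Cx and an OM library with the same number came from the same rat. All rats had the same strain and the same base diet, no gene was altered, and each library is a dissected mixture of tubules, vessels and other cells.

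Claudins are membrane proteins of the tight junction, the seal between neighbouring epithelial cells. Some close the space between cells and others line pores through it that select ions by charge and size, so the claudins a nephron segment makes set what can pass between its cells. The proximal tubule is leaky to sodium and water, the thick ascending limb lets sodium, calcium and magnesium pass but not water, and the collecting duct is tight.

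The values below are CPM, the usual scaled count, which is the read pairs on a gene relative to those on all genes after TMM scaling over the 30 libraries, and they are listed in the order of the replicate numbers. Levels of different genes are compared only as CPM per kb, the CPM divided by the gene length in the deposited table. A change is a log2 ratio between 2 groups of 5 libraries with its SE, and a gene counts as raised or lowered where the edgeR quasi-likelihood test gave a Benjamini-Hochberg adjusted p under 0.05 over all genes tested. In such bulk tissue, fewer cells of a type and less RNA per cell cannot be told apart.

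By the files' build, Rnor_6.0, the proximal pore gene Cldn2 (ENSRNOG00000054495) lies at chrX:111122552-111137769, plus strand, and Cldn10 (ENSRNOG00000010085) at chr15:104026601-104115748, plus strand. The magnesium and calcium pore genes are Cldn16 (ENSRNOG00000055138) at chr11:77681794-77703255, minus strand, and Cldn19 (ENSRNOG00000007922) at chr5:138300107-138305683, plus strand. Of the distal claudins, Cldn3 (ENSRNOG00000046007) lies at chr12:21831342-21832813, minus strand, Cldn4 (ENSRNOG00000001476) at chr12:24761210-24763005, plus strand, Cldn7 (ENSRNOG00000017325) at chr10:56576428-56578626, plus strand, and Cldn8 (ENSRNOG00000001571) at chr11:28525643-28527890, minus strand. Cldn1 (ENSRNOG00000001926) lies at chr11:77815181-77830416, plus strand. The endothelial Cldn5 (ENSRNOG00000045811) at chr11:86356294-86357718, minus strand is the only member within the span of another row, that of Cdc45 on the plus strand. All 10 are annotated as protein coding, and the counts are taken per gene, so the alternative first exons of Cldn10 are not separated.

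The stretches before the start site are shown for 4 members that were called in the Cx at HS21, Cldn3, Cldn7 and Cldn8 raised and Cldn10 lowered. They are 250 bases each from RefSeq on GRCr8, a later build than that of the counts, at chr12:27346548-27346797 on the minus strand, chr10:55188420-55188669 on the plus strand, chr11:41364331-41364580 on the minus strand and chr15:102269608-102269857 on the plus strand. RefSeq promoters were at hand for 8 of the 10 members, and not for Cldn2 and Cldn4, which were also called there. Capitals mark matches on either strand to a GC box (GGGCGG), the grainyhead motif (AACCNGTT), an HNF1 core (GTTAAT) or a TATA box (TATAAA), none of which overlapped another.
Cldn3: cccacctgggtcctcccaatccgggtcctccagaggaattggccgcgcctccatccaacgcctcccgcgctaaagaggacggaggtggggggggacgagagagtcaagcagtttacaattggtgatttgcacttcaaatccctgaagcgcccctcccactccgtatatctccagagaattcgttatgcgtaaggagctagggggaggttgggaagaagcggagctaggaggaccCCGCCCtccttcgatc
Cldn7: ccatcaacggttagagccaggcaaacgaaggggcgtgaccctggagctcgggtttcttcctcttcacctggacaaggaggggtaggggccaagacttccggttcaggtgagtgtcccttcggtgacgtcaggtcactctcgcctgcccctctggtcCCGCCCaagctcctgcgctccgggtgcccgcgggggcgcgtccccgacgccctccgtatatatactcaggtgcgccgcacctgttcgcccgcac
Cldn8: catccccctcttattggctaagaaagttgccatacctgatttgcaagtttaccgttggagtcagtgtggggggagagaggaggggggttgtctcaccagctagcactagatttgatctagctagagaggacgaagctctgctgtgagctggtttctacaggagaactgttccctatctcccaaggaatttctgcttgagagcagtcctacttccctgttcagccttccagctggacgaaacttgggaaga
Cldn10: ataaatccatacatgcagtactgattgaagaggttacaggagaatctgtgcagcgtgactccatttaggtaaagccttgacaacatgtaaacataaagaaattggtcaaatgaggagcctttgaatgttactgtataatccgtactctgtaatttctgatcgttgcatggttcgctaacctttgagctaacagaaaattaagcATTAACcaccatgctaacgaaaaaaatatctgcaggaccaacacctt
A GC box stood once in the window of Cldn3 and once in that of Cldn7, and 30.5% of all 33469 promoter windows of this length held one. The window of Cldn10 held 1 HNF1 core, found in 6.45% of all windows, and that of Cldn8 held none of the 4 motifs. The grainyhead motif, in 1.76% of all windows, and the TATA box, in 12.9%, were in none of the windows of the 8 members. The share of G and C was 65.6% before Cldn7, 59.2% before Cldn3, 50.4% before Cldn8 and 38.0% before Cldn10, against a median of 51.2% over all windows.

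The libraries ranged in depth from 5408126 read pairs on genes, in OM HS14 replicate 10, through 12748841 in the next lowest and a median of 15000262 to 21842843. By the mapping summary of the paper, OM HS14 replicate 10 also had the lowest share of mapped reads and of exonic bases of all libraries. The summed level of 9 thick ascending limb markers was 2461 to 4818 CPM in the Cx and 11218 to 24219 CPM in the OM, and that of 5 distal convoluted tubule markers, with Pvalb at 0 throughout, was 1438 to 4622 CPM in the Cx and 19.6 to 430.1 CPM in the OM. OM LS replicate 2 stood apart, since it held the most of the cortical transcripts Slc12a3 (8.44 on the log2 CPM scale, next 5.69) and Slc34a1 (12.07, next 10.54) of the 15 OM libraries and the lowest summed thick ascending limb markers. Cx HS14 replicate 10 had the highest summed thick ascending limb, distal convoluted tubule, principal cell and intercalated cell markers and the lowest summed proximal tubule markers of its group.

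Per kb of gene length, Cldn2 was the most abundant of the 10 mRNAs in the Cx on LS, at 118 ± 8.67 CPM per kb (SD, n = 5), followed by Cldn10 at 81.0 ± 5.91 and Cldn8 at 39.6 ± 3.81. The ranges of these 3 did not overlap, nor did those of Cldn8 and Cldn7 (12.9 ± 1.66) or of Cldn7 and Cldn4 (9.01 ± 0.858). Cldn4, Cldn16 (8.72 ± 0.937) and Cldn19 (7.46 ± 1.11) overlapped their neighbours in that order, as did Cldn19 and Cldn1 (5.18 ± 0.798), and Cldn3 came last of the 9 detected at 2.92 ± 0.822. The order in the OM was another one. Cldn10 led on LS at 214 ± 62.9 CPM per kb, followed by Cldn2 (75.9 ± 34.7), Cldn8 (74.2 ± 32.9), Cldn19 (70.2 ± 26.1), Cldn16 (41.9 ± 2.77), Cldn4 (38.2 ± 22.6), Cldn7 (32.2 ± 15.9) and Cldn3 (23.2 ± 3.53). Each of these overlapped the next in the spread of the 5 libraries, and Cldn1 (2.64 ± 1.04) was the lowest of the 9. Summed over the members, claudin mRNA came to 285.3 ± 12.6 CPM per kb in the Cx and 572.0 ± 126.4 in the OM on LS.

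The make-up of this sum shifted in the Cx on the HS diet. Cldn2 made up 41.5% ± 1.91 (SD, n = 5) of the summed CPM per kb on LS, 39.3% ± 9.01 at HS14 and 30.6% ± 5.70 at HS21, and Cldn10 28.4% ± 1.70, 23.0% ± 2.86 and 19.7% ± 3.02. Without Cx HS14 replicate 10, in which Cldn2 held 23.6%, the share of Cldn2 at HS14 was 43.2% ± 2.48 (n = 4), above that on LS, and that of Cldn10 was 23.9% ± 2.51. Cldn8 went the other way, from 13.9% ± 1.43 to 19.0% ± 8.31 and 22.3% ± 5.16, with 15.3% ± 0.238 at HS14 without replicate 10. In the OM, Cldn10 held 36.8% ± 3.42 on LS and 33.8% ± 1.75 at HS21, and Cldn2 15.04% ± 10.4 and 15.7% ± 5.96. Without OM LS replicate 2 the shares on LS were 38.2% ± 1.77 for Cldn10 and 10.8% ± 4.87 for Cldn2 (n = 4). The shares are a description, since the parts of a sum are not independent of each other.

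**Figure D1:**
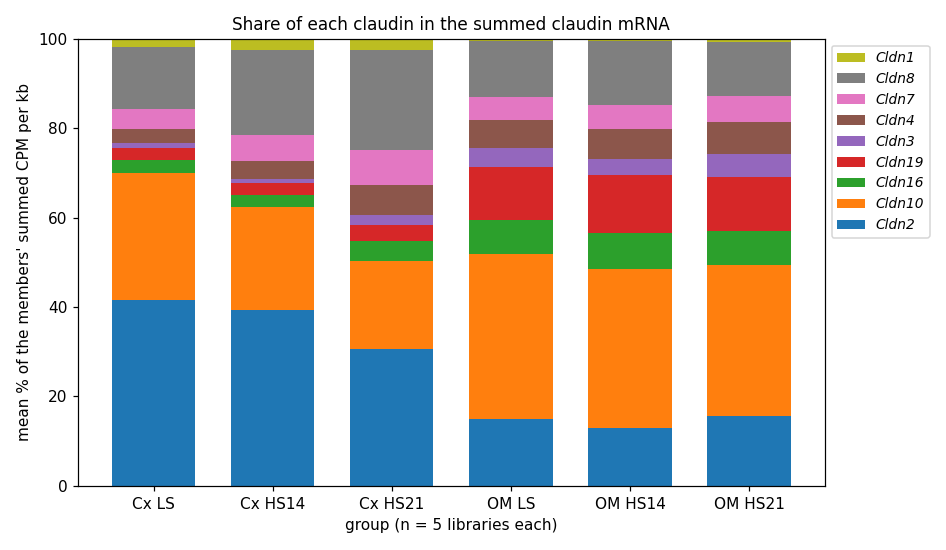
Stacked bars give the mean share (in %) of each claudin in the summed CPM per kb of the members for the 6 groups, with 5 libraries in each. Cldn2 shrinks from 41.5% to 30.6% and Cldn8 grows from 13.9% to 22.3% between Cx LS and Cx HS21, and Cldn10 is the widest band in each OM group.

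On LS, 7 of the 9 members tested were higher in the OM than in the Cx and 1 was lower, where 40.9% of all 14295 genes tested were called, 21.3% higher and 19.5% lower. At HS14 it was 6 higher and 2 lower, against 28.7% of all genes, 15.7% higher and 13% lower, and at HS21 5 higher and none lower, against 31.8%, 17.3% higher and 14.5% lower. Groups did not overlap for 4, 6 and 5 members on the 3 diets, as for 29.1%, 25.3% and 24.8% of all genes. The count of none lower at HS21 came from edgeR, which gave 7 of the 9 members an unadjusted p under 0.05 in that comparison (40.9% of all genes had one), and DESeq2 and limma each called 1 member lower, Cldn1. Over all genes at HS21, DESeq2 called 2809 higher and 2697 lower of 21894, and limma 2146 and 2464 of 14659. With the replicate number as a block, it was 6 higher and 1 lower at HS21, where equal numbers deviated together in all 5 pairs, and 6 higher and 1 lower on LS, where they did not in all pairs and where Cldn8 was no longer called. Over all genes the block gave 2842 higher and 2554 lower of 14659 at HS21, against 2536 and 2119 without it. On LS it gave 2442 and 2569 of 14295, against 3051 and 2794. Between the diets in the Cx, 4 members were raised and 2 lowered at HS21 against LS, where 39.4% of all 14299 genes were called, 18.9% raised and 20.5% lowered, and 3 of the 9 had groups that did not overlap, as did 26.4% of all genes. In 1 fit of all 30 libraries, where all groups share one estimate of the spread, Cldn3 and Cldn10 were still called and Cldn2, Cldn4, Cldn7 and Cldn8 were not, with log2 ratios of −0.60, 0.94, 0.69 and 0.56 (edgeR adjusted p = 0.118, 0.0576, 0.0949 and 0.183). Calls fell over all genes too in that fit, to 1397 raised and 883 lowered of 15494, from 2702 and 2936 of 14299. At HS14 against LS in the Cx edgeR called no member, where it called 2.33% of all genes. DESeq2 called Cldn1 and Cldn10, where it called 498 genes raised and 422 lowered of 21353.

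**Figure D2:**
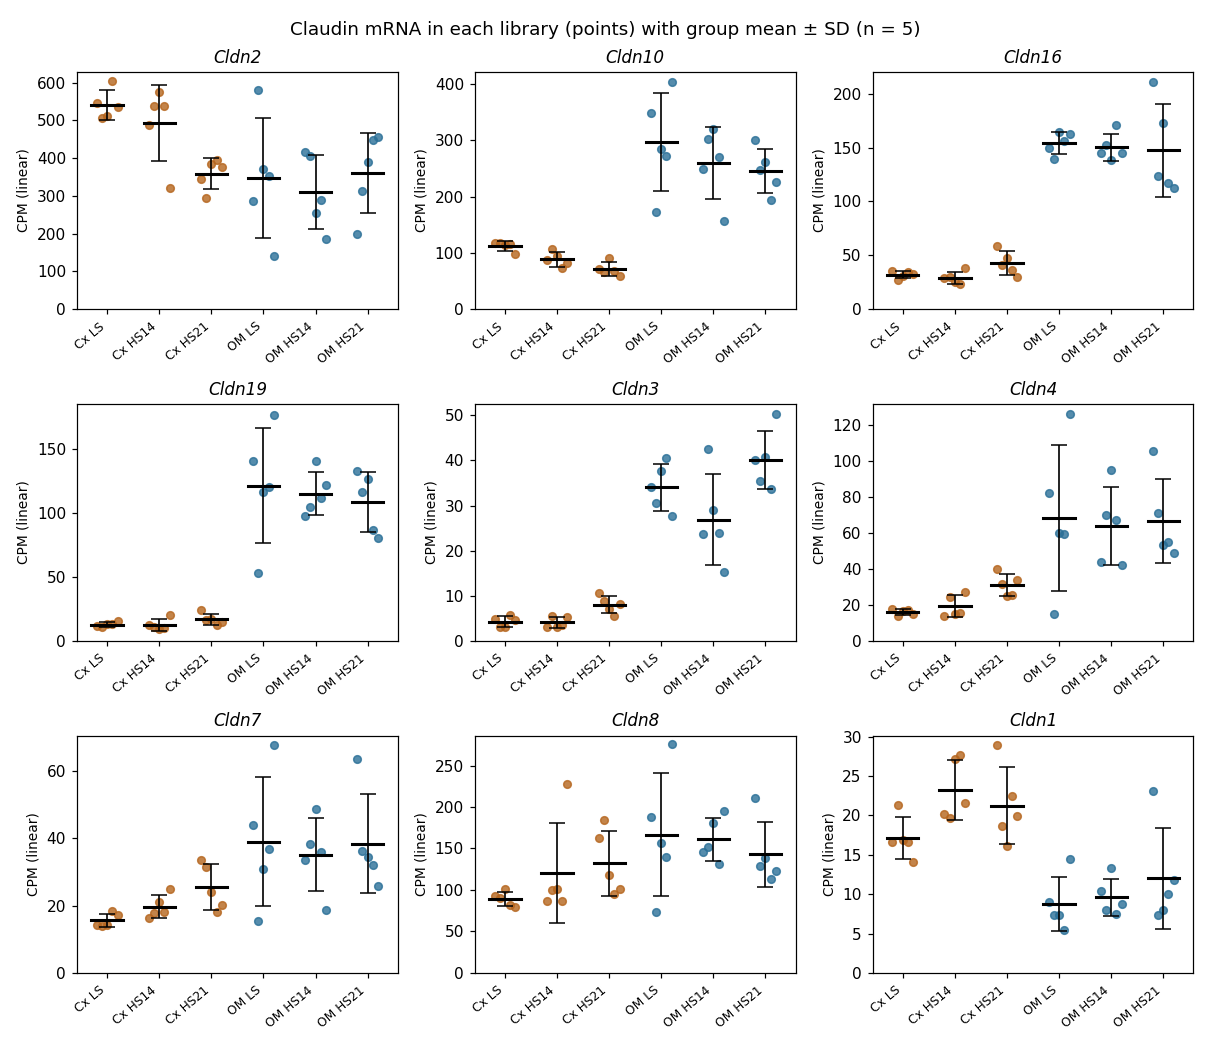
Points give the CPM of each library for the 9 detected claudins on linear axes that start at 0, with the group mean and SD as black bars (n = 5 libraries per group, Cx in brown and OM in blue). Cldn2 and Cldn10 fall from Cx LS to Cx HS21 with no overlap, Cldn4 rises with none, and Cldn3, Cldn10, Cldn16 and Cldn19 lie higher in each OM group than in the Cx group on the same diet.

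Cldn2, which forms a pore for cations and water in the proximal tubule and the thin descending limb, was lowered in the Cx at HS21. The Cx libraries held 547, 506, 511, 605 and 535 CPM on LS. They held 488, 537, 575, 539 and 321 CPM at HS14 and 345, 294, 384, 396 and 376 CPM at HS21. Every HS21 library was below every LS library, and Cx HS14 replicate 10 was low among 4 others near the LS values. The mean went from 541 ± 39.6 CPM on LS to 359 ± 40.9 at HS21 (SD, n = 5; log2 ratio −0.61, SE 0.08, adjusted p = 0.000236 by edgeR), a level 1.52-fold lower. In the OM the libraries spread more widely, from 142 to 579.7 CPM on LS, with the highest value in OM LS replicate 2, 185 to 415 at HS14 and 199 to 455 at HS21. Against the Cx on LS the OM had a log2 ratio of −0.64 (SE 0.30, edgeR adjusted p = 0.107, interval of 2 SE −1.23 to −0.05), which passed without OM LS replicate 2 (−0.93, adjusted p = 0.00885). At HS14 it was lower in the OM (log2 ratio −0.67, SE 0.23, adjusted p = 0.0476), but not called when Cx HS14 replicate 6, 7, 8 or 9 or OM HS14 replicate 8 or 9 was left out (adjusted p from 0.0765 to 0.107). At HS21, where the Cx level was lower, the log2 ratio of OM to Cx was 0.02 (interval of 2 SE −0.38 to 0.41, adjusted p = 0.965).

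Cldn10 has a form in the thick ascending limb that conducts sodium and another that favours anions in the proximal tubule. It was lowered in the Cx as Cldn2 was, and was higher in the OM. The Cx libraries held 117, 117, 115, 116 and 97.9 CPM on LS, with replicate 5 below the other 4. At HS14 they held 86.6, 107, 94.5, 72.8 and 81.7 CPM and at HS21 71.0, 65.4, 91.4, 68.3 and 59.2 CPM. All 5 HS21 libraries lay below all 5 LS libraries, and the change at HS21 was 1.60-fold downward (log2 ratio −0.68, SE 0.11, adjusted p = 0.000534 by edgeR). The OM libraries held 348, 172, 285, 273 and 404 CPM on LS, 249.9, 302, 320.0, 271 and 156 CPM at HS14 and 300.4, 247, 261, 194 and 225 CPM at HS21. Each was above each Cx library on the same diet, by 2.62-fold on LS (log2 ratio 1.39, SE 0.19, adjusted p = 0.00025), 2.92-fold at HS14 and 3.49-fold at HS21 (adjusted p = 6.95e-05 and 8.79e-06).

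Cldn16 and Cldn19 together form the pore for calcium and magnesium of the thick ascending limb, and loss of either wastes these ions in the urine. Cldn19 had the widest difference between the tissues of the 9 members on LS. The Cx libraries held 11.4, 10.9, 13.4, 12.98 and 15.8 CPM of Cldn19 on LS and the OM libraries 140.3, 53.1, 116, 120.2 and 177 CPM. The lowest OM library, replicate 2, was still above the highest Cx library, and the OM was 9.31-fold higher (log2 ratio 3.22, SE 0.27, adjusted p = 1.50e-05 by edgeR). For Cldn16 the Cx libraries held 35.9, 26.9, 31.0, 34.4 and 32.5 CPM on LS and the OM libraries 150.0, 139, 165, 156 and 162 CPM, a 4.78-fold difference without overlap (log2 ratio 2.26, SE 0.08, adjusted p = 2.39e-07). Both stayed higher in the OM without overlap at HS14 (log2 ratio 2.37 for Cldn16 and 3.21 for Cldn19) and at HS21 (1.80 and 2.69).

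On the HS diet in the Cx, neither Cldn16 nor Cldn19 was called against LS by edgeR, while DESeq2 called Cldn16 at HS21 (log2 ratio 0.40, adjusted p = 0.0397). On simulated counts for Cx HS21 against LS, 13.5% of the DESeq2 calls and 5.45% of the edgeR calls were false. Cldn16 stood at 29.3, 30.3, 24.9, 23.8 and 38.1 CPM at HS14 and 58.3, 41.2, 47.5, 36.6 and 29.5 CPM at HS21, and 4 of the 5 HS21 libraries were above all LS libraries. Cldn19 stood at 12.2, 10.6, 9.39, 9.88 and 20.2 CPM at HS14, high in replicate 10, and 23.9, 16.2, 17.2, 12.7 and 15.2 CPM at HS21. Their log2 ratios at HS21 were 0.39 (interval of 2 SE 0.08 to 0.71, edgeR adjusted p = 0.0655) and 0.39 (0.07 to 0.71, adjusted p = 0.0761). Without Cx HS21 replicate 15, the lowest for Cldn16 in its group, Cldn16 passed at 0.51 (adjusted p = 0.0102), and without replicate 14, the lowest for Cldn19, Cldn19 passed at 0.49 (0.0289). For each gene this was the only 1 of 10 fits without a library that changed the call. Leaving out the lowest library of the higher group favours a call, so these fits are not evidence of a rise. Cldn16 and Cldn19 also passed under total-count scaling, which moved the median log2 ratio of all genes from 0.00 to 0.13.

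Cldn3, Cldn4, Cldn7 and Cldn8 are claudins of the tight distal nephron and collecting duct, and all 4 were raised in the Cx at HS21, Cldn4, Cldn7 and Cldn8 not in the fit of all 30 libraries. Cldn4, known to work with Cldn8 in the passage of chloride between collecting duct cells, rose the most. The Cx libraries held 17.7, 14.2, 16.6, 17.4 and 14.9 CPM of Cldn4 on LS, 13.9, 24.5, 15.1, 15.9 and 27.2 CPM at HS14 and 39.8, 31.9, 25.0, 25.6 and 33.9 CPM at HS21. The HS21 libraries were all above the LS libraries, the HS14 group overlapped both, and the HS21 level was 1.91-fold that on LS (log2 ratio 0.94, SE 0.13, adjusted p = 0.000247 by edgeR). Cldn3, a sealing claudin also found in the thick ascending limb, held 4.96, 3.03, 3.12, 5.83 and 4.55 CPM on LS, 3.15, 5.63, 3.17, 3.54 and 5.35 CPM at HS14 and 10.6, 8.81, 7.14, 5.45 and 8.24 CPM at HS21. 4 of the 5 HS21 libraries exceeded every LS library, replicate 14 did not, and the rise was 1.85-fold (log2 ratio 0.89, SE 0.22, adjusted p = 0.00834). These Cldn3 levels rest on 39 to 166 read pairs per library.

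Cldn7, found at the junctions and along the sides of collecting duct cells, held 14.3, 14.0, 14.3, 18.4 and 17.2 CPM in the Cx on LS, 16.4, 17.9, 21.0, 18.0 and 25.1 CPM at HS14 and 33.7, 31.5, 24.2, 18.2 and 20.1 CPM at HS21. HS21 replicate 14 lay within the LS range and the other 4 above it, for a 1.61-fold rise (log2 ratio 0.69, SE 0.17, adjusted p = 0.00708 by edgeR). Cldn8, the most abundant of the 4 per kb, held 93.2, 89.8, 101, 81.7 and 79.7 CPM on LS, 86.6, 100.03, 101, 86.6 and 227 CPM at HS14 and 162, 184, 118, 95.0 and 101 CPM at HS21. Replicate 10 was far above the rest of HS14, and HS21 replicates 11, 12 and 13 were above all LS libraries with replicates 14 and 15 near the top of the LS range. The rise at HS21 was 1.47-fold (log2 ratio 0.55, SE 0.17, adjusted p = 0.0227), and it was not called without Cx LS replicate 4 (adjusted p = 0.0540) or replicate 5 (0.0558).

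The same 4 genes were higher in the OM on LS. Cldn3 held 34.2, 30.5, 37.7, 40.5 and 27.7 CPM there, all above the Cx, a 7.88-fold difference (log2 ratio 2.98, SE 0.19, adjusted p = 3.21e-06 by edgeR). Cldn4 held 82.1, 14.8, 60.0, 59.3 and 126 CPM and Cldn7 44.0, 15.4, 31.0, 36.8 and 67.9 CPM, with replicate 2 within the Cx range for both and replicate 5 the highest. They were 4.19-fold and 2.47-fold higher in the OM (log2 ratio 2.07, SE 0.42, adjusted p = 0.00293 for Cldn4, and log2 ratio 1.31, SE 0.31, adjusted p = 0.00651 for Cldn7). Cldn8 held 189, 72.9, 157, 140.1 and 275 CPM, from below the Cx libraries in replicate 2 to the highest value in replicate 5, and was 1.85-fold higher (log2 ratio 0.89, SE 0.27, adjusted p = 0.0232). That call was lost without Cx LS replicate 2, 4 or 5 or OM LS replicate 1 (adjusted p of 0.0507, 0.0575, 0.0590 and 0.0512), with the replicate block (0.78, adjusted p = 0.0705) and by limma (0.75, adjusted p = 0.0519).

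At HS21 the log2 ratio of OM to Cx was 2.33 for Cldn3 and 1.12 for Cldn4, both called and without overlap (edgeR adjusted p = 4.99e-06 and 0.00297). For Cldn7 it was 0.61 (interval of 2 SE 0.10 to 1.12, adjusted p = 0.0976), which passed with the replicate block (0.58, adjusted p = 0.00678). For Cldn8 it was 0.13 (−0.32 to 0.58, adjusted p = 0.715). At HS14 the ratios were 2.69 for Cldn3, 1.72 for Cldn4 and 0.83 for Cldn7, all called (adjusted p = 3.49e-05, 0.000515 and 0.0111), and 0.43 for Cldn8 (adjusted p = 0.296), which passed without Cx HS14 replicate 10 (0.79, adjusted p = 0.00366).

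Cldn1, a claudin of the parietal cells that line Bowman's capsule, was the one member lower in the OM on LS. The Cx libraries held 16.6, 21.3, 16.9, 16.6 and 14.0 CPM on LS and the OM libraries 9.02, 7.30, 7.29, 5.49 and 14.5 CPM. OM LS replicate 5 was above the lowest Cx library, the other 4 below all of them, and the OM level was 1.98-fold lower (log2 ratio −0.99, SE 0.23, adjusted p = 0.00675 by edgeR). At HS14 the tissues did not overlap (log2 ratio −1.27, SE 0.18, adjusted p = 0.000271). At HS21 the OM libraries held 23.1, 7.30, 8.03, 9.96 and 11.8 CPM, with replicate 11 within the Cx range, and the log2 ratio was −0.80 (interval of 2 SE −1.41 to −0.19, adjusted p = 0.0682). It passed without OM HS21 replicate 11 (−1.18, adjusted p = 0.00116) and with the replicate block (−0.90, adjusted p = 0.00385). In the Cx, Cldn1 held 20.2, 19.7, 27.1, 27.6 and 21.6 CPM at HS14 and 29.0, 18.6, 16.1, 22.5 and 19.9 CPM at HS21, and its log2 ratio at HS21 against LS was 0.30 (interval of 2 SE −0.01 to 0.61, adjusted p = 0.150).

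Cldn5, the claudin of endothelial junctions, had 0 counts in all 30 libraries and was not tested. A count of 0 allows up to 3 counts, or 0.150 to 0.516 CPM by library, and this limit covers counting error only. The 11 endothelial markers, among them Kdr, Cdh5 and Plvap, summed to 499.9 to 1479 CPM and none was at 0, so endothelial RNA was present. The Cldn5 row lies wholly within the span of Cdc45, which held 1.16 to 2.96 CPM, on the opposite strand, and the libraries do not keep strand. The part of that overlap in the count of 0 was not tested.

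**Figure D3:**
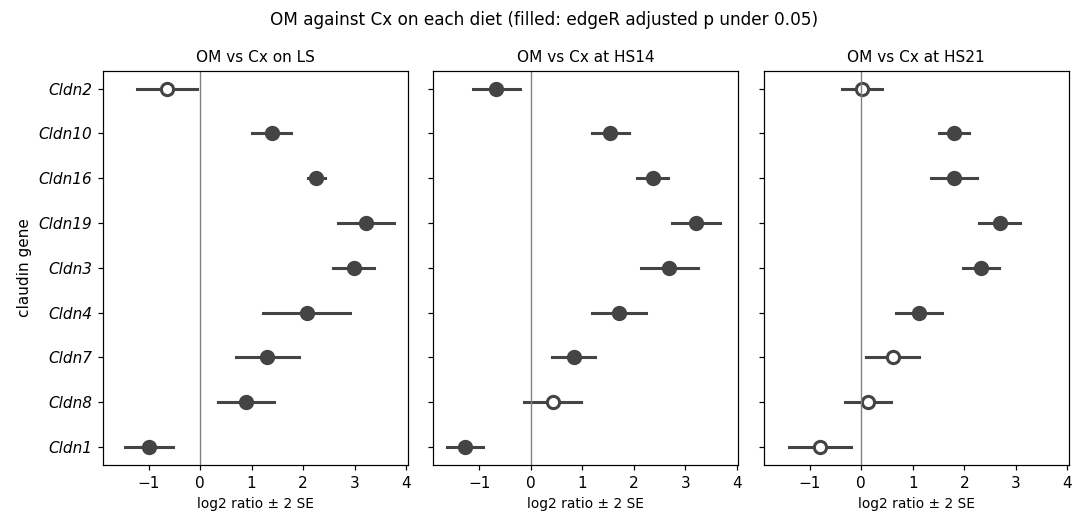
Log2 ratios of OM to Cx (points, with lines of 2 SE either side) for the 9 tested claudins on LS, at HS14 and at HS21, 5 libraries per tissue and diet, filled where the edgeR adjusted p was under 0.05. Cldn19 and Cldn3 lie farthest to the right on LS (3.22 and 2.98), and Cldn1 lies left of 0 on each diet.

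After 14 d in the Cx, none of the 9 members passed by edgeR, 3 had an unadjusted p under 0.05 (17.4% of all genes did), none had groups that did not overlap (5.17% of all genes did), and limma called none while DESeq2 called Cldn1 and Cldn10. Over all genes, limma called 121 raised and 136 lowered of 14181, and DESeq2 498 and 422 of 21353. Cldn1 was higher in 3 of 5 HS14 libraries than in any LS library (log2 ratio 0.43, interval of 2 SE 0.17 to 0.69, adjusted p = 0.106). Cldn7 had a log2 ratio of 0.32 (0.06 to 0.57, adjusted p = 0.225) and Cldn10 of −0.36 (−0.55 to −0.17, adjusted p = 0.0716), the last of which passed without Cx HS14 replicate 7 (−0.44, adjusted p = 0.0227). That of Cldn8 was 0.42 (−0.07 to 0.92), with 227 CPM in Cx HS14 replicate 10 and 86.6 to 101 CPM in the other 4 HS14 libraries, and 0.05 without that library (adjusted p = 0.832). Those of Cldn2, Cldn3, Cldn4, Cldn16 and Cldn19 lay between −0.16 and 0.24, and without Cx HS14 replicate 10 between −0.32 (Cldn19) and 0.07 (Cldn4).

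Between HS14 and HS21 in the Cx, 2 members were raised and 1 lowered, where 16.2% of all 14395 genes were called, 6.5% raised and 9.69% lowered. Cldn3 rose (log2 ratio 0.95, SE 0.23, adjusted p = 0.0204 by edgeR) and so did Cldn4 (log2 ratio 0.69, SE 0.21, adjusted p = 0.0431), and Cldn2 was lowered (log2 ratio −0.45, SE 0.14, adjusted p = 0.0488). None of the 3 was called under every leave-one-out fit. The call of Cldn3 was lost without Cx HS14 replicate 8 or 9 (adjusted p of 0.0575 and 0.0569). That of Cldn4 was lost without Cx HS14 replicate 6, 8 or 9 or Cx HS21 replicate 11, 12, 14 or 15 (0.0562 to 0.102), and that of Cldn2 without any one of the 10 libraries other than Cx HS14 replicate 10 (0.0522 to 0.117). With all libraries, Cldn16 was called by DESeq2 (0.54, adjusted p = 0.0262) and under total-count scaling (0.66, adjusted p = 0.0346). Without Cx HS14 replicate 10, Cldn16 (0.65, adjusted p = 0.0243) and Cldn19 (0.70, 0.0167) were called too, Cldn16 also without Cx HS21 replicate 15 (0.65, 0.0384), and Cldn10 was called without Cx HS21 replicate 13 (−0.43, 0.0206). Calls over all genes rose as well without Cx HS14 replicate 10, to 1476 raised and 2048 lowered of 14541. With all libraries they were 935 and 1395 of 14395. Without Cx HS14 replicate 10 the ratio of Cldn8 was 0.50 (adjusted p = 0.0787). With all libraries the ratios of Cldn1, Cldn7, Cldn8, Cldn10, Cldn16 and Cldn19 lay between −0.31 and 0.54. This comparison shares its HS21 libraries with the one against LS.

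**Figure D4:**
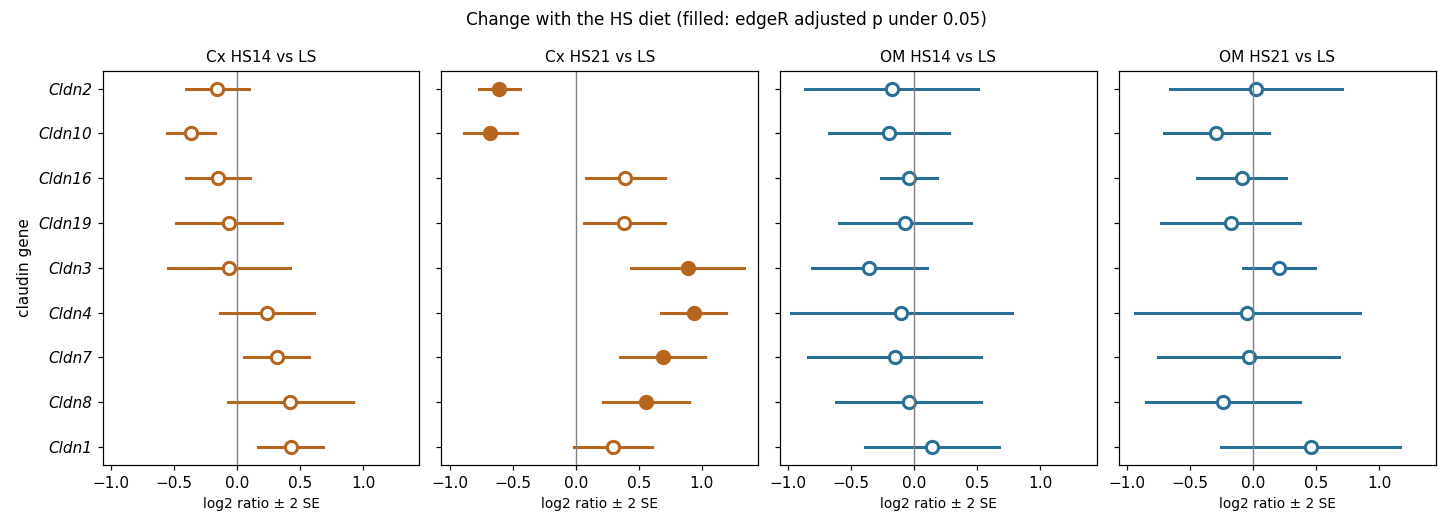
Log2 ratios of HS14 and HS21 to LS (points, with lines of 2 SE either side) for the 9 tested claudins in the Cx (brown) and the OM (blue), 5 libraries per group, filled where the edgeR adjusted p was under 0.05. Only the panel of Cx HS21 has filled points, with Cldn2 and Cldn10 to the left of 0 and Cldn3, Cldn4, Cldn7 and Cldn8 to the right.

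In the OM no member was called on the HS diet. At HS14 against LS none of the 9 had an unadjusted p under 0.05 by edgeR (5.73% of all genes did), which called 0.00694% of all 14417 genes. DESeq2 and limma called no member either. Over all genes, DESeq2 called 90 raised and 20 lowered of 21686, and limma 1 and 0 of 14417. Leaving out OM LS replicate 2 and OM HS14 replicate 10 together, a choice made after the data were seen, also gave no member. The log2 ratios ran from −0.36 for Cldn3 to 0.14 for Cldn1, with those of Cldn2, Cldn4, Cldn7, Cldn8, Cldn10, Cldn16 and Cldn19 between −0.20 and −0.04. The intervals of 2 SE were −0.26 to 0.18 for Cldn16, the narrowest, and −0.98 to 0.77 for Cldn4, the widest.

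At HS21 against LS edgeR called 0.769% of all 14555 genes in the OM, and again none of the 9 members had an unadjusted p under 0.05 by edgeR (11.2% of all genes did). No member was called by DESeq2 or limma. Over all genes, DESeq2 called 554 raised and 166 lowered of 21816, and limma 110 and 27 of 14555. The log2 ratios ran from −0.29 for Cldn10 (interval of 2 SE −0.71 to 0.13) to 0.46 for Cldn1 (−0.26 to 1.17), the gene whose OM HS21 replicate 11 stood at 23.1 CPM against 7.30 to 11.8 CPM in the other 4. For Cldn3 the OM held 23.7, 42.5, 29.0, 23.9 and 15.3 CPM at HS14, lowest in replicate 10, and 40.1, 35.5, 40.8, 33.7 and 50.2 CPM at HS21. From HS14 to HS21 it had the one unadjusted p under 0.05 in the OM (log2 ratio 0.56, interval of 2 SE 0.12 to 1.01, edgeR adjusted p = 0.961), in a comparison in which 0% of all 14499 genes were called and 3.77% had an unadjusted p under 0.05. The spread within the OM groups was wide for several members, and Cldn4 went from 14.8 CPM in OM LS replicate 2 to 126 CPM in replicate 5.

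The difference of a member's diet change in the OM from that in the Cx was tested as an interaction term in a fit of 20 libraries. This fit took them as independent, though both zones were taken from the same kidneys. At HS21 none of the 9 members passed by edgeR, DESeq2 or limma. By edgeR 2 had an unadjusted p under 0.05 (15.6% of all genes did), and 0.665% of all 15194 genes were called. Over all genes, DESeq2 called 337 with a positive and 201 with a negative term of 22835, and limma 137 and 46 of 15194. The change was smaller in the OM than in the Cx by 0.68 on the log2 scale for Cldn3 (−0.68, interval of 2 SE −1.20 to −0.16, adjusted p = 0.217) and by 0.80 for Cldn8 (−0.80, −1.54 to −0.06, adjusted p = 0.308). For Cldn4 the term was −0.99 (−1.97 to −0.01, adjusted p = 0.337), and without OM LS replicate 2 it passed at −1.23 (adjusted p = 0.0296). Without that library edgeR called 729 genes with a positive term and 546 with a negative one, of 15391. With all libraries it called 68 and 33 of 15194. The term was 0.63 for Cldn2 (−0.11 to 1.37) and 0.38 for Cldn10 (−0.11 to 0.87), and between −0.73 and 0.15 for Cldn1, Cldn7, Cldn16 and Cldn19. With the replicate number as a block no member passed at HS21, where 60 genes had a positive and 34 a negative term of 15194. Cldn16 came nearest with the block (−0.50, SE 0.10, edgeR adjusted p = 0.0574), beside −0.49 (adjusted p = 0.350) without it. At HS14 no member had an unadjusted p under 0.05 by edgeR (3.7% of all genes did), and edgeR called 0% of all 15091 genes. No member was called by DESeq2 or limma. Over all genes, DESeq2 called 6 with a positive and 2 with a negative term of 22775, and limma called 0. A call in the Cx beside none in the OM is therefore not shown to be a difference between the tissues.

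Markers of the same segments changed too in the Cx at HS21. Cldn10 fell while those of the thick ascending limb rose, and Cldn1, Cldn16 and Cldn19 were not called by edgeR. Of the 12 proximal tubule markers 9 were lowered and 1 raised (median log2 ratio −0.69), and their summed level was 19115 to 21303 CPM on LS and 11189 to 14831 CPM at HS21. Of the 7 principal cell markers 6 were raised (median 0.91) and their sum went from 679.3 to 746.7 CPM on LS to 994.7 to 1671 CPM at HS21. Of the 9 thick ascending limb markers 6 were raised (median 0.59), with sums of 2461 to 2918 CPM on LS and 3639 to 4762 CPM at HS21. All 6 intercalated cell markers, all 4 tested distal convoluted tubule markers and 4 of 5 podocyte markers were raised as well, as were all 6 leukocyte markers (median 2.09). Of the 9 tested tubular injury markers 6 were raised and 2 lowered (median 1.09), with sums of 372.6 to 583.3 CPM on LS and 533.7 to 1196 CPM at HS21. Of the 11 endothelial markers 5 were raised (median 0.27), of the 4 fibroblast markers 1, and of the 3 tested thin limb markers 2 were raised and 1 lowered. In this comparison 39.4% of all genes were called. Over all genes the median was 0.00. The part of a change in cell make-up in the claudin values was not tested beyond the differences that follow.

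The log2 CPM of each member less the mean log2 CPM of its segment's markers was compared between the diets by a two-sided exact permutation test of 5 against 5 libraries, which cannot give a p under 0.00794. None of the 36 differences had an adjusted p under 0.05, which would have taken at least 6 of them at or near that smallest p, so the adjusted p says little here. In the Cx at HS21, Cldn3, Cldn4, Cldn7 and Cldn8 differed from the principal cell markers by −0.26 (Cldn8) to 0.14 (Cldn4), and Cldn16 and Cldn19 from the thick ascending limb markers by −0.15 and −0.14, or by −0.44 and −0.43 when the median of the markers was taken in place of their mean. At HS14 in the Cx, Cldn10, Cldn16 and Cldn19 differed from these markers by −0.54, −0.33 and −0.28 with overlap by the mean and by −0.88, −0.67 and −0.63 without overlap by the median (exact permutation p = 0.00794 for each, adjusted p = 0.0571). Cldn10 went against the thick ascending limb markers, falling by 0.67 while they rose by 0.52, a difference of −1.19 without overlap of the groups (exact permutation p = 0.00794, adjusted p = 0.143). Cldn2 less the proximal tubule markers differed by −0.20, again without overlap (exact permutation p = 0.00794, adjusted p = 0.143), but by 0.22 by the median of the markers. Against the proximal tubule markers, a comparison added after the data were seen, Cldn10 at HS21 differed by −0.28 by their mean (exact permutation p = 0.0952) and by 0.14 by their median (exact permutation p = 0.254), with overlap in both. Cldn8 less the median of the principal cell markers differed by −0.42 without overlap (exact permutation p = 0.00794, adjusted p = 0.0571). Cldn1 less the podocyte markers differed by −0.02. No marker list for parietal cells was used.

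The genes whose log2 CPM followed each member most closely over the 30 libraries were found among 14615 genes by Pearson r, as a description in which the libraries share the tissue difference and the scaling. For Cldn19 the closest was Slc12a1, the sodium, potassium and chloride carrier of the thick ascending limb (r = 0.991), then the transcription factor gene Irx2 (0.991) and Pcsk6 (0.990). For Cldn16 they were Irx2 (0.978), Umod, the uromodulin of the same segment (0.978), and Slc12a1 (0.978). Cldn7 was closest to Rab25, a GTPase of epithelial recycling (0.954), Cldn8 to Ildr1, a protein of tricellular junctions (0.934), Cldn4 to Tor3a (0.975), and Cldn3 to Ppp1r1b (0.972). Cldn2 was closest to LOC688553 (0.967), Cldn10 to Gyltl1b (0.954) and Cldn1 to Acss1 (0.883).

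Within the 15 libraries of a tissue, the claudins of one segment did not always move together. Cldn4 and Cldn7 did in both tissues (r = 0.77 among the Cx and 0.92 among the OM libraries), and Cldn2 ran opposite to Cldn8 in both (−0.84 and −0.89). Cldn16 and Cldn19 had an r of 0.84 in the Cx and 0.47 in the OM. Cldn10, taken here with the thick ascending limb, had an r of −0.23 with Cldn16 and 0.72 with Cldn2 in the Cx, and of 0.44 and −0.42 in the OM. The libraries of a tissue differ in diet and in the proportions dissected, which these values share.

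Among the other 12 claudin rows, 6 were tested in the Cx at HS21, 3 raised and 1 lowered, where 18.9% of all genes were raised and 20.5% lowered. Cldn6, an embryonic claudin, was raised (log2 ratio 0.94, SE 0.23, edgeR adjusted p = 0.00792), as was its neighbour on chromosome 10, Cldn9 (0.92, SE 0.27, adjusted p = 0.0192), both at low levels, with a mean of 4.62 CPM for Cldn6 and 2.16 CPM for Cldn9 over the 10 libraries. Cldn23 was higher in the OM than in the Cx on LS (mean 8.21 CPM over the 10 libraries, log2 ratio 5.99, SE 0.35, adjusted p = 1.91e-06).

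Of 70 tested partners of the members, which comprise those other claudins, other tight junction proteins, scaffolds, adherens junction proteins and regulators of claudins, 16 were raised and 24 lowered in the Cx at HS21, or 57.1%, beside 39.4% of all genes. The scaffolds of the tight junction had 3 raised and 7 lowered of 24 (median log2 ratio −0.13), the adherens junction genes 1 and 7 of 11 (−0.28), and the regulators 7 and 7 of 19 (0.26). Of the 10 other membrane proteins of the tight junction 2 were raised and 2 lowered. Jam2, a junctional adhesion molecule, was raised at HS21 (1.09, SE 0.13, adjusted p = 8.66e-05) and was the one partner called at HS14 (0.65, adjusted p = 0.0341). Ildr2, a relative of the tricellular protein Ildr1, was lowered at HS21 (−1.12, SE 0.11, adjusted p = 3.34e-05), as were the cadherin gene Cdh6 (−0.89, adjusted p = 3.57e-05) and Egfr, the receptor for epidermal growth factor (−0.81, adjusted p = 0.000389).

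On LS, 24 of 71 partners were higher in the OM than in the Cx and 19 lower, or 60.6%, beside 40.9% of all genes. Marveld2, which encodes tricellulin, was higher (log2 ratio 1.99, SE 0.19, adjusted p = 3.02e-05), as was Grhl2, a grainyhead transcription factor of epithelia (2.08, SE 0.26, adjusted p = 0.000164). Ildr2 was lower in the OM (−4.30, SE 0.64, adjusted p = 0.000455), with Nectin1, an adhesion protein of the adherens junction (−2.57, adjusted p = 0.000284), and Vdr, the vitamin D receptor (−1.84, adjusted p = 7.79e-05).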

How the data were processed

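Per the paper's methods and the labels, poly(A) RNA was sequenced without keeping strand, the reads were aligned to Rnor_6.0 with HISAT2 2.0.5, and the authors counted them per gene with featureCounts 1.5.0-p3 (StringTie 1.3.3b is named too). The deposited table gives raw counts per gene and library. The deposited FPKM values, which the authors scaled by depth and gene length, served for limma only. Its group means, a signal that the authors made by averaging scaled counts, and the log2 fold changes and p-values of the authors' own comparisons were deposited beside these and not used.

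Groups followed the labels. Genes were filtered with filterByExpr, scaled by TMM and tested with the edgeR 4.0.16 quasi-likelihood test (R 4.3.3, Benjamini-Hochberg adjusted p under 0.05), in each comparison with its own groups of 5 and in the tissue by diet term with 20 libraries. Every member was named in every comparison, and of the partners up to 3 raised and 3 lowered genes with the largest log2 ratio and a mean of at least 1 CPM. The members and lists were chosen with earlier results of these data known. log2 CPM used a prior count of 2, and an interval is the log2 ratio with 2 SE on either side. Alternatives were DESeq2 1.42.0 (Wald test), its size factors, total-count scaling, no filter, limma 3.58.1 on log2(FPKM + 1), 1 fit of all 30 libraries, the replicate block, leaving out each library, and, added after seeing the data, leaving out the OM libraries LS replicate 2 and HS14 replicate 10 together, the shares without a library that stood apart, and proximal tubule markers for Cldn10. The methods give 5 kidneys per diet, and the p-values measure the spread between these samples. In 60 replicate pairs none differed by less than sampling noise (lowest mean chi-square per gene 7.29). Equal Cx and OM numbers deviated together in all 5 HS21 pairs, with r over 0.1, and not in all LS or HS14 pairs. On simulated counts with 200 changed genes, edgeR recovered 78.4% for Cx HS21 against LS (14299 genes), with 5.45% of calls false. It recovered 57.9% for OM HS21 against LS (14555 genes), with 5.79% false. For OM against Cx on LS it was 62.2%, with 3.94% false, and for the HS21 interaction 46.5%, with 5.15% false. DESeq2 recovered 83%, 70%, 74% and 57.5% in the same order. Of its calls 13.5%, 20.5%, 21.3% and 17.9% were false. The counts were simulated with the spread that edgeR had estimated, and 200 genes changed, where 39.4% of all genes were called in Cx HS21 against LS. The shares of false calls therefore need not hold in the real comparisons. A member called by DESeq2 and not by edgeR stays uncertain.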

Additional observations from a re-analysis of the deposited data

Results flagged for a closer look

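In groups of 5 libraries, a value whose gap to its nearest neighbour takes up most of the range of its group was marked as standing apart by Dixon's criterion. This marked 6 of the 54 groups of a member, tissue and diet, where chance alone marks about 1 in 20, or 2.7. The members were measured in the same 30 libraries, so these groups are not independent and 2.7 is only a rough guide. In OM HS21, replicate 11 stood above the other libraries for Cldn1 (23.1 CPM, group median 9.96), Cldn7 (63.7 CPM, median 34.5) and Cldn8 (211 CPM, median 129). In Cx HS14, replicate 10 stood above the others for Cldn8 (227 CPM, median 100.04) and Cldn19 (20.2 CPM, median 10.6). In Cx LS, replicate 5 stood below the others for Cldn10 (97.9 CPM, median 116).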

How the results depend on the processing

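Of 99 member tests, which share libraries, 30 were called, and 21 of these were called under every alternative. Between diets only Cldn3 and Cldn10 in Cx HS21 against LS were called under every alternative, and the rest of the 21 were OM against Cx. No such share was taken over all genes. The cause of the changes was not tested except where stated. DESeq2 called 1 member raised (Cldn1) and 1 lowered (Cldn10) in Cx HS14 against LS, where it called 498 genes raised and 422 lowered of 21353. In Cx HS21 against LS, total-count scaling gave 7 raised, and 1 fit of all 30 libraries, in which all groups share one estimate of the spread, gave 1 raised (Cldn3) and 1 lowered (Cldn10). Over all genes that fit called 1397 raised and 883 lowered of 15494. In Cx HS21 against HS14, 1 fit of all libraries gave 1 raised, and that fit, DESeq2 size factors, total-count scaling, no filter and limma each gave 0 lowered. For OM against Cx, 1 was lower at HS14 under total-count scaling and with no filter, and 1 was lower at HS21 with DESeq2, limma, 1 fit of all libraries and the replicate block. Over all genes these fits called 1403 and 1958 lower at HS14, against 1872 in the main fit. At HS21 they called 2697, 2464, 1908 and 2554 lower, against 2119. Total-count scaling turned the split of all genes in Cx HS21 against LS from 2702 raised and 2936 lowered to 4401 and 1653, in Cx HS21 against HS14 from 935 and 1395 to 2084 and 644, and in OM against Cx on LS from 3051 and 2794 to 5546 and 1842. The replicate block, with libraries of equal number paired, gave 6 higher and 1 lower for OM against Cx on LS, where Cldn8 was no longer called (0.78, adjusted p = 0.0705), and changed no other call than those of Cldn1 and Cldn7 at HS21. Over all 15 pairs, 10 had an r over 0.1 and 13 libraries correlated best with their own number. Leaving out 1 library at a time, the counts ran from 0 to 1 lowered in Cx HS14 vs LS (43 to 232 over all genes). In Cx HS21 vs HS14 they ran from 0 to 4 raised (337 to 1476 over all genes) and 0 to 1 lowered (692 to 2048). In OM vs Cx they ran from 1 to 2 lower on LS (2388 to 3790) and at HS14 (1566 to 3098). At HS21 they ran from 0 to 1 lower (1937 to 2227), and in interaction HS21 from 0 to 1 lowered (4 to 546). A call gained without the library nearest the other group was favoured by that choice. With leaving out both OM libraries the sign turned, to 0.23 for Cldn2 in OM HS14 vs LS and 0.35 for Cldn2 in interaction HS14. With limma the sign turned, to 0.11 for Cldn4 in OM HS14 vs LS, 0.058 for Cldn8 in OM HS14 vs LS, 0.015 for Cldn19 in OM HS14 vs LS, 0.16 for Cldn4 in OM HS21 vs LS, 0.036 for Cldn7 in OM HS21 vs LS, −0.073 for Cldn2 in OM vs Cx at HS21, 0.097 for Cldn2 in interaction HS14 and 0.12 for Cldn19 in interaction HS14. With total-count scaling the sign turned, to 0.015 for Cldn16 in OM HS21 vs HS14. With DESeq2 size factors in edgeR the sign turned, to −0.0045 for Cldn2 in OM vs Cx at HS21 and 0.00070 for Cldn19 in interaction HS14. With DESeq2 the sign turned, to −0.0029 for Cldn2 in OM vs Cx at HS21. With 1 fit of all libraries the sign turned, to −0.0082 for Cldn2 in OM vs Cx at HS21. With replicate block the sign turned, to −0.032 for Cldn2 in OM vs Cx at HS21, 0.056 for Cldn2 in interaction HS14 and 0.089 for Cldn19 in interaction HS14. With the median of the segment markers the sign turned, to 0.015 for Cldn2 in Cx HS14 vs LS, 0.22 for Cldn2 in Cx HS21 vs LS, −0.044 for Cldn3 in Cx HS21 vs LS, −0.012 for Cldn4 in Cx HS21 vs LS, 0.063 for Cldn1 in Cx HS21 vs LS, 0.089 for Cldn2 in OM HS14 vs LS, −0.028 for Cldn16 in OM HS21 vs LS and −0.0023 for Cldn19 in OM HS21 vs LS. When 1 library was left out, the sign of these log2 ratios also turned, over the ranges −0.19 to 0.068 for Cldn3 in Cx HS14 vs LS, −0.32 to 0.025 for Cldn19 in Cx HS14 vs LS, −0.019 to 0.50 for Cldn8 in Cx HS21 vs HS14, −0.38 to 0.084 for Cldn2 in OM HS14 vs LS, −0.36 to 0.22 for Cldn4 in OM HS14 vs LS, −0.36 to 0.12 for Cldn7 in OM HS14 vs LS, −0.24 to 0.19 for Cldn8 in OM HS14 vs LS, −0.27 to 0.088 for Cldn19 in OM HS14 vs LS, −0.18 to 0.29 for Cldn2 in OM HS21 vs LS, −0.30 to 0.28 for Cldn4 in OM HS21 vs LS, −0.30 to 0.24 for Cldn7 in OM HS21 vs LS, −0.43 to 0.0042 for Cldn8 in OM HS21 vs LS, −0.079 to 0.45 for Cldn1 in OM HS21 vs HS14, −0.18 to 0.23 for Cldn4 in OM HS21 vs HS14, −0.15 to 0.26 for Cldn7 in OM HS21 vs HS14, −0.23 to 0.035 for Cldn16 in OM HS21 vs HS14, −0.083 to 0.17 for Cldn2 in OM vs Cx at HS21, −0.051 to 0.26 for Cldn8 in OM vs Cx at HS21, −0.22 to 0.23 for Cldn2 in interaction HS14, −0.0094 to 0.28 for Cldn10 in interaction HS14, −0.23 to 0.22 for Cldn19 in interaction HS14, −0.23 to 0.40 for Cldn1 in interaction HS21. No result whose sign turned had an adjusted p under 0.05. The depth leaves Cldn3 in the Cx at 39 to 166 read pairs per library. OM HS14 replicate 10 has the lowest total of the 30 libraries and, by the mapping summary of the paper, the lowest share of exonic bases.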
